A study of Mus musculus with 8 samples.

Results

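The 38 genes described here, which mark macrophages and dendritic cells, were followed in the mouse uterus across the estrous cycle. They were chosen by name, and all 38 were found among the 52308 genes of the deposited count table through their identifiers in GENCODE M21. The scavenger receptor gene Marco, with 0 to 5 counts in a library, fell under the filter on low counts, so 37 of the 38 were among the 18114 genes tested. The uteri came from female ICR mice, an outbred laboratory stock, aged 6 to 8 weeks. Their stage was read from stained vaginal smears, and the 4 stages proestrus, estrus, metestrus and diestrus have 2 libraries each, 8 in all. No drug, surgery or genetic change is given for any group. Whether each library stands for its own mouse is not said in the labels. The p-values therefore speak for the spread among these 8 samples alone, and that spread may be technical.

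Macrophages and dendritic cells are myeloid cells of the immune system. Macrophages live on CSF1, read by the receptor CSF1R, and clear dead cells and matrix through scavenger and Fc receptors. Conventional dendritic cells depend on the receptor FLT3, take up antigen and carry it to T cells. In the uterus both kinds of cell lie in the stroma and around the smooth muscle. The organ is built up and broken down again in each cycle under estrogen and progesterone.

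Levels are given in CPM, the usual depth-scaled count, with library sizes scaled by TMM, and for comparison between genes in CPM per kilobase of summed exon length. Library totals lay between 17863546 and 21896786 counts. A gene is called changed where its adjusted p in edgeR's quasi-likelihood test, fitted to all 8 libraries and all genes, is under 0.05. Fold changes are log2 values with their SE from that fit. In whole tissue, fewer cells of a type and less RNA per cell cannot be told apart. The 2 diestrus libraries lay apart in smooth muscle genes, whose 5 markers summed to 14411.7 CPM in library 1 and 5791 CPM in library 2. Epithelial, stromal and muscle markers of the uterus were all present, with Epcam at 117 to 663 CPM over the 8 libraries.

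Most of the markers peaked in estrus. Across the 4 stages, 26 of the 37 tested markers changed, against 39.1% of all genes tested. Of the 37, 19 were called with their highest mean in estrus, against 14.1% of all genes tested. Among called genes alone, that peak was held by 19 of the 26 markers and by 2554 of 7085 genes. Diestrus held the highest mean of 5 called markers of the 37, namely Mertk, Mgl2, Flt3, Zbtb46 and Cd209a. Of all genes tested, 6.74% were called with that peak. Proestrus held that of Msr1 and Lyve1, against 9.36%, and metestrus that of no changed marker, against 8.92%. Both estrus libraries lay above every other library for 20 of the 37 tested markers, against 16.6% of all genes tested. Both diestrus libraries did so for Mertk, Zbtb46 and Cd209a, against 6.64%. Both proestrus libraries lay below every other library for 10, against 11.8%, both diestrus libraries for 5, against 6.67%, both estrus libraries for Lyve1, against 15.0%, and both metestrus libraries for Cd68, against 9.31%. Of the 26 calls, 12 held under every alternative run. Leaving out any library of proestrus, estrus or metestrus lowered the number of markers called across the stages. It also lowered the number called over all genes tested. Both numbers were lowest without estrus library 1.

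**Figure D1:**
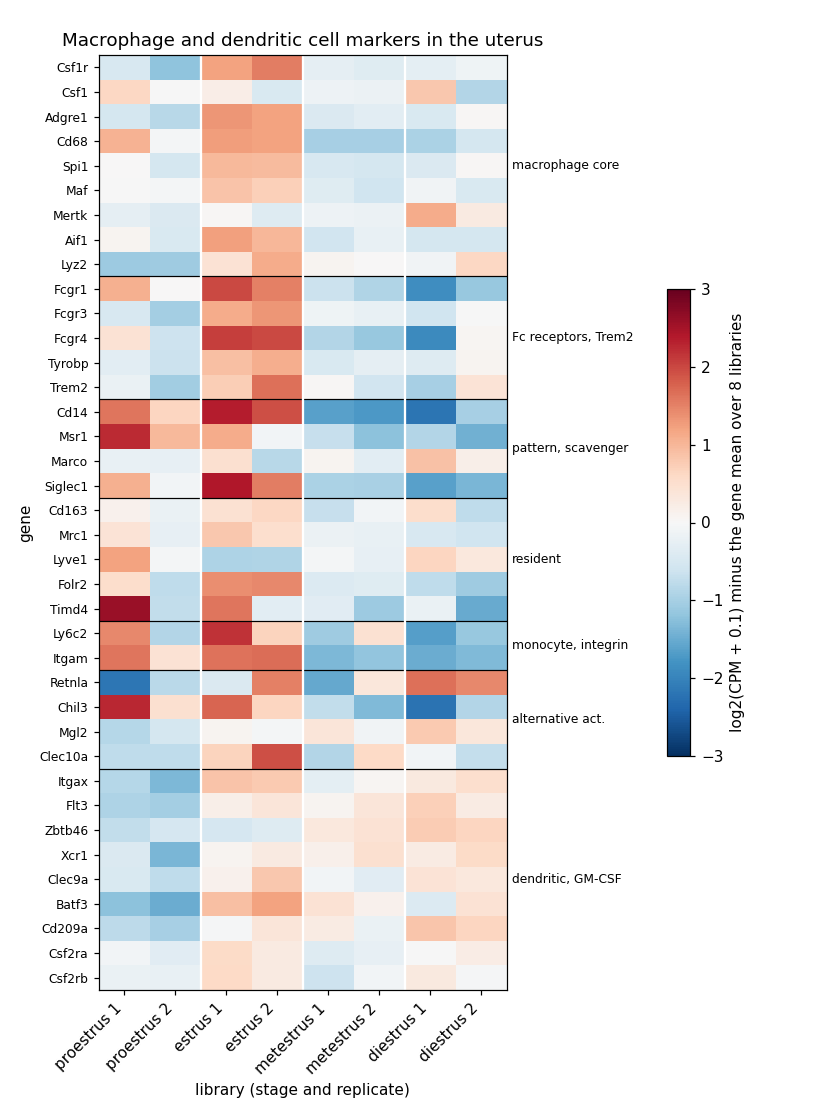
Heat map of the 38 markers (rows, grouped by role) in the 8 libraries (columns, by stage and replicate). Colour is log2(CPM + 0.1) minus the mean of the gene over all libraries. The red block in the estrus columns covers most macrophage genes, and most dendritic cell genes at the bottom are blue in proestrus.

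Of the 9 core macrophage genes, 8 changed across the stages, against 39.1% of all genes tested. Of the 9, 7 were called with their highest mean in estrus, against 14.1% of all genes tested. Csf1r, the receptor that macrophages need for survival, had 68.6 and 41.2 CPM in proestrus, 221 and 279.8 CPM in estrus, 79.9 and 74.8 CPM in metestrus and 78.7 and 87.6 CPM in diestrus. Both estrus libraries stood above all others and both proestrus libraries below all others. Csf1r rose in estrus against proestrus (2.19 ± 0.25, adjusted p = 0.00545), and fell in metestrus against estrus (-1.69 ± 0.25, adjusted p = 0.00435). Adgre1 (ENSMUSG00000004730, chr17:57358691-57483527, plus strand, GRCm38), which encodes the surface receptor F4/80, had 33.2 and 26.8 CPM in proestrus, 120.1 and 111 CPM in estrus, 35.3 and 38.7 CPM in metestrus and 35.2 and 48.9 CPM in diestrus. Its levels in estrus were again above every other library. Adgre1 rose in estrus against proestrus (1.95 ± 0.19, adjusted p = 0.00361) and fell in metestrus against estrus (-1.65 ± 0.19, adjusted p = 0.00248). These 4 calls, and those of both genes in estrus against diestrus (1.59 ± 0.25, adjusted p = 0.00737 for Csf1r and 1.46 ± 0.19, adjusted p = 0.00399 for Adgre1), held under every alternative run. Hmgxb3 overlaps Csf1r on the opposite strand. The library kit marks strand, but how the counting treated it is unstated.

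The transcription factor genes Spi1 and Maf also rose in estrus and fell in metestrus. Spi1, which encodes PU.1, had 17.3 and 11.9 CPM in proestrus, 33.6 and 32.9 CPM in estrus, 12.2 and 11.9 CPM in metestrus and 12.6 and 17.7 CPM in diestrus. Both estrus libraries were higher than the rest, and proestrus overlapped with metestrus and with diestrus. It rose in estrus against proestrus (1.19 ± 0.23, adjusted p = 0.0226) and fell in metestrus against estrus (-1.46 ± 0.24, adjusted p = 0.00581). The rise ended without proestrus library 2, either estrus library or either metestrus library (adjusted p from 0.0566 to 0.122), and the fall without metestrus library 2 (adjusted p = 0.0535). Maf, a factor of mature macrophages that other cells also express, had 140.0 and 135 CPM in proestrus, 255 and 229.8 CPM in estrus, 109.9 and 92.4 CPM in metestrus and 131 and 102 CPM in diestrus. It rose in estrus against proestrus (0.82 ± 0.16, adjusted p = 0.0208) and fell in metestrus against estrus (-1.26 ± 0.16, adjusted p = 0.00305). That rise ended without either proestrus library or either estrus library (adjusted p from 0.0805 to 0.117), whereas the fall held under every alternative run.

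Aif1, which encodes the actin-binding protein IBA1, was highest in estrus too. It had 9.79 and 6.65 CPM in proestrus, 21.5 and 18.3 CPM in estrus, 6.12 and 7.91 CPM in metestrus and 6.39 and 6.304 CPM in diestrus. Aif1 rose in estrus against proestrus (1.28 ± 0.25, adjusted p = 0.0219) and fell in metestrus against estrus (-1.50 ± 0.25, adjusted p = 0.00637). These calls ended without proestrus library 2 or either estrus library (adjusted p from 0.0815 to 0.119) for the rise and without metestrus library 1 (adjusted p = 0.0514) for the fall. Cd68, a lysosomal glycoprotein of macrophages, was already high in proestrus. It had 101.2 and 46.8 CPM in proestrus, 118 and 114 CPM in estrus, 24.5 and 24.6 CPM in metestrus and 25.3 and 33.8 CPM in diestrus, so that the proestrus libraries lay more than 2-fold apart. Cd68 fell in metestrus against estrus (-2.24 ± 0.35, adjusted p = 0.00527) under every alternative run, and its difference between estrus and proestrus was not called (0.64 ± 0.33, adjusted p = 0.228). It was also lower in metestrus than in proestrus (-1.59 ± 0.34, adjusted p = 0.0262), a call that ended without proestrus library 1, either estrus library or either metestrus library (adjusted p from 0.0559 to 0.159), with a log2 fold change of -0.94 without proestrus library 1.

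Lyz2, Mertk and Csf1 were not called lower in metestrus than in estrus. Lyz2, the lysozyme of macrophages and neutrophils, had 154 and 156 CPM in proestrus, 446 and 712 CPM in estrus, 349 and 333 CPM in metestrus and 308 and 505 CPM in diestrus. Both proestrus libraries were the lowest of all, and diestrus overlapped with estrus and with metestrus. Lyz2 rose in estrus against proestrus (1.90 ± 0.30, adjusted p = 0.01204), and its difference between metestrus and estrus was not called (-0.76 ± 0.29, adjusted p = 0.0787). This first call ended without either proestrus library or estrus library 2 (adjusted p from 0.0621 to 0.08598). Mertk, a receptor for dying cells, had 19.997 and 18.01 CPM in proestrus, 24.7 and 18.5 CPM in estrus, 21.96 and 21.3 CPM in metestrus and 52.9 and 29.3 CPM in diestrus. Both diestrus libraries were the highest, library 1 above library 2. Mertk was lower in proestrus than in diestrus (-1.11 ± 0.29, adjusted p = 0.0354), a call that ended without either proestrus library, either estrus library, either metestrus library or diestrus library 1 (adjusted p from 0.0523 to 0.1398) and by limma-voom or when the 4 libraries concerned were fitted alone (adjusted p from 0.0507 to 0.111). Csf1, the ligand of Csf1r, had 79.8 and 51.4 CPM in proestrus, 59.3 and 37.5 CPM in estrus, 46.7 and 45.9 CPM in metestrus and 90.4 and 28.1 CPM in diestrus. The diestrus libraries alone lay more than 3-fold apart, and no difference between stages was called (adjusted p = 0.775 across the stages).

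Of 7 growth factor and chemokine genes, 6 were tested, and Il34, Csf3, Ccl2 and Cx3cl1 fell in metestrus against estrus. Flt3l and Tgfb1 were not called, and none rose. Over all genes tested, 19.5% fell and 16.7% rose at that step. Il34, another ligand of Csf1r, had 2.15 and 3.97 CPM in proestrus, 8.804 and 8.47 CPM in estrus, 1.16 and 0.813 CPM in metestrus and 2.97 and 1.41 CPM in diestrus, and its fall was -3.12 ± 0.48, adjusted p = 0.00516. Cx3cl1, which recruits CX3CR1-bearing monocytes, had 72.96 and 54.2 CPM in proestrus, 86.6 and 84.9 CPM in estrus, 18.6 and 20.7 CPM in metestrus and 26.7 and 20.3 CPM in diestrus and fell as well (-2.13 ± 0.20, adjusted p = 0.001604). Csf3, the growth factor of neutrophils, had 31.3 and 15.04 CPM in proestrus, 32.7 and 9.03 CPM in estrus, 0.6696 and 0.642 CPM in metestrus and 0.495 and 0.908 CPM in diestrus. Flt3l, the ligand of Flt3, had 2.77 and 2.03 CPM in proestrus, 5.002 and 2.99 CPM in estrus, 2.05 and 2.87 CPM in metestrus and 3.64 and 2.67 CPM in diestrus and was not called in any pair (adjusted p = 0.318 across the stages). Csf2 was under the filter, with at most 0.300 CPM in a library.

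**Figure D2:**
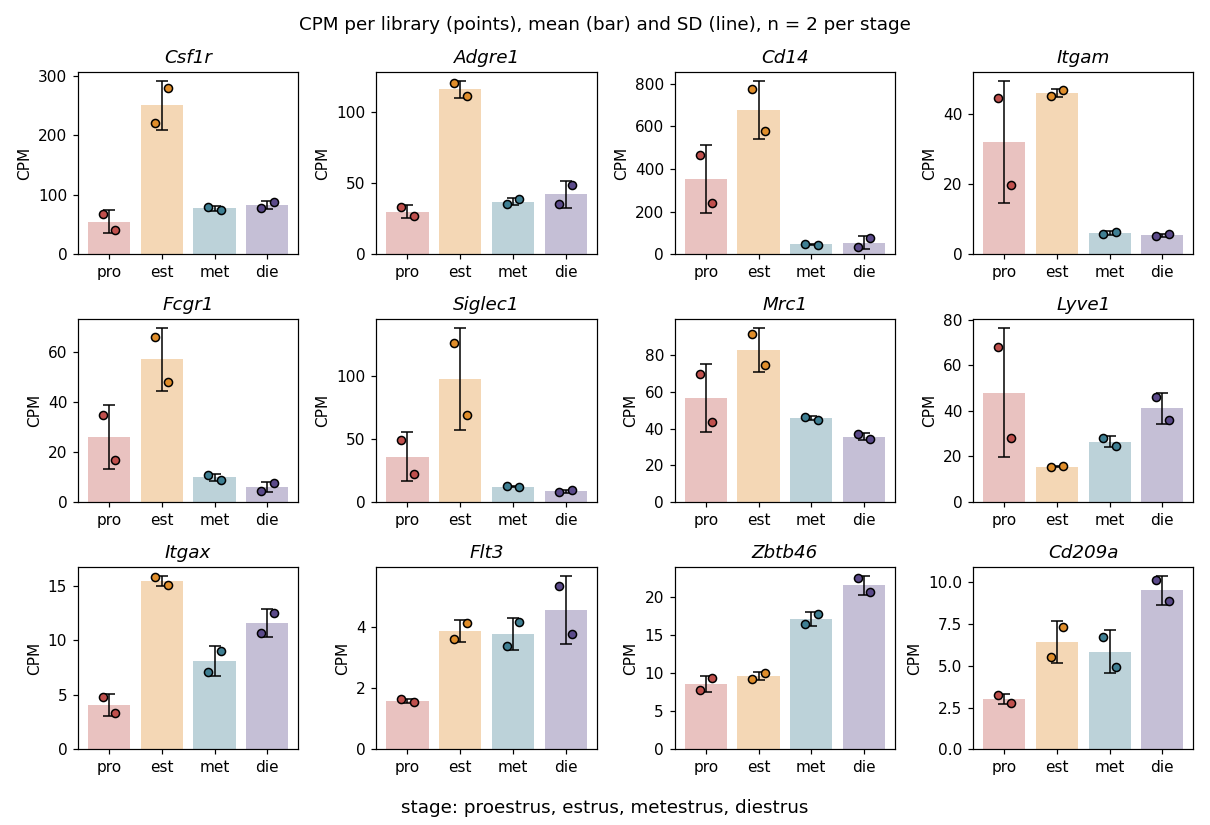
CPM of 12 markers in each library (points), with the mean (bars, from 0) and SD (lines) of the 2 libraries of a stage, in the order proestrus, estrus, metestrus and diestrus. Csf1r and Adgre1 peak in estrus, Cd14 and Itgam are high in proestrus and estrus, Lyve1 is lowest in estrus, and Zbtb46 is highest in diestrus.

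Of the 5 Fc receptor, Trem2 and adaptor genes, 2 rose in estrus against proestrus and 4 fell in metestrus against estrus. The shares over all genes tested were 8.12% and 19.5%. Fcgr1, the high-affinity IgG receptor CD64, had 34.97 and 16.97 CPM in proestrus, 65.98 and 48.2 CPM in estrus, 10.7 and 8.898 CPM in metestrus and 4.54 and 7.51 CPM in diestrus. Estrus libraries were the highest and diestrus libraries the lowest of all. It fell in metestrus against estrus (-2.54 ± 0.40, adjusted p = 0.005603), and it was higher in estrus than in diestrus (3.24 ± 0.42, adjusted p = 0.00414), the second call under every alternative run. The first ended without metestrus library 2 (adjusted p = 0.0544). Fcgr4, an activating IgG receptor of monocytes and macrophages, had 2.46 and 1.14 CPM in proestrus, 7.85 and 7.33 CPM in estrus, 0.937 and 0.77 CPM in metestrus and 0.405 and 1.87 CPM in diestrus and fell in metestrus against estrus (-3.14 ± 0.70, adjusted p = 0.0156), a call that ended without either estrus library or either metestrus library (adjusted p from 0.0566 to 0.107). Fcgr3, a low-affinity IgG receptor also found on NK cells, had 12.7 and 8.73 CPM in proestrus, 38.7 and 44.4 CPM in estrus, 16.3 and 15.2 CPM in metestrus and 11.6 and 17.6 CPM in diestrus. Its estrus levels were above all others. Fcgr3 rose in estrus against proestrus (1.95 ± 0.26, adjusted p = 0.00834) and fell in metestrus against estrus (-1.40 ± 0.26, adjusted p = 0.00864). Its rise ended without proestrus library 2 or estrus library 2 (adjusted p from 0.0573 to 0.05896) and the fall without either metestrus library (adjusted p from 0.0575 to 0.0717). Of the 75-base words in Fcgr3 transcripts, 5.42% also occur in Fcgr2b, the inhibitory receptor, so a few reads could belong to either gene.

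Tyrobp, the adaptor DAP12 through which several receptors signal, had 30.97 and 24.9 CPM in proestrus, 73.03 and 82.6 CPM in estrus, 28.3 and 32.1 CPM in metestrus and 29.9 and 41.0 CPM in diestrus, and both estrus libraries were the highest. Tyrobp rose in estrus against proestrus (1.48 ± 0.19, adjusted p = 0.00771) and fell in metestrus against estrus (-1.36 ± 0.19, adjusted p = 0.00393), and the fall held under every alternative run. The rise ended without proestrus library 2 or estrus library 2 (adjusted p from 0.0557 to 0.0617). Trem2, a lipid receptor that signals through Tyrobp, had 9.74 and 5.36 CPM in proestrus, 18.8 and 35.2 CPM in estrus, 11.4 and 7.53 CPM in metestrus and 5.53 and 14.98 CPM in diestrus. Both estrus libraries were above the rest but nearly 2-fold apart, and no pair was called (adjusted p = 0.0827 across the stages). DESeq2 called it across the stages (adjusted p = 0.00708), as did edgeR without diestrus library 1 (0.0324) or 2 (0.0193), and its adjusted p was 0.00708 to 0.419 over all alternatives.

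The start regions of 5 of the markers are shown as examples of windows with a PU box (4 of them) and without it (Cd209a), picked after the matches were known. They are the 250 bases before the RefSeq transcription start (GRCm38.p6), read 5′ to 3′ on the strand of the gene. Capitals mark the 6-base PU box GAGGAA on either strand, which on the opposite strand reads TTCCTC, the core that PU.1, the product of Spi1, is known to bind. The Cd68 window is chr11:69666171-69666420 on the minus strand, that of Aif1 chr17:35176053-35176302 on the minus strand, that of Fcgr1 chr3:96293970-96294219 on the minus strand, that of Fcgr4 chr1:171018676-171018925 on the plus strand and that of Cd209a chr8:3748985-3749234 on the minus strand.
Cd68: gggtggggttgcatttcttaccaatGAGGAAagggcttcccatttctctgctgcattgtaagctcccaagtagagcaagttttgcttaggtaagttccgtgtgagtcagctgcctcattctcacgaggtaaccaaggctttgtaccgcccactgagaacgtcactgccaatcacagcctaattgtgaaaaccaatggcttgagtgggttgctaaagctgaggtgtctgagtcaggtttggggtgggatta
Aif1: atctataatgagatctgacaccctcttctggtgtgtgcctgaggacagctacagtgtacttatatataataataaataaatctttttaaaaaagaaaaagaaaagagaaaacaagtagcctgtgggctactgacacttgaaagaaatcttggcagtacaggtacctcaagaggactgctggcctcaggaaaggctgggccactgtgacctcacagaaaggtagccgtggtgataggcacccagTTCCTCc
Fcgr1: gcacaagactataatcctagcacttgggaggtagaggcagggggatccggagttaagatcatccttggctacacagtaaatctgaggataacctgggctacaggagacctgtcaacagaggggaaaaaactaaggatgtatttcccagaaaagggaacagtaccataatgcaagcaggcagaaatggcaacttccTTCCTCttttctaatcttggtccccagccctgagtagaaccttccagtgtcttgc
Fcgr4: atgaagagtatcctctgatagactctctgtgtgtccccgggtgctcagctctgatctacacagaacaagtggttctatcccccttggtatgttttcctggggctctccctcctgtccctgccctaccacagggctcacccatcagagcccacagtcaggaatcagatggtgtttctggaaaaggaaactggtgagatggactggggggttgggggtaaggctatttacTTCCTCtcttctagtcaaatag
Cd209a: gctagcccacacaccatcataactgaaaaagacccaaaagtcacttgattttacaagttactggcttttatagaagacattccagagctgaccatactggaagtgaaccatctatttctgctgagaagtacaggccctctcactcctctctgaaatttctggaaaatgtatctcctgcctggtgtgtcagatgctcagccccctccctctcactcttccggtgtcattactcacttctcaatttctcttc
The PU box begins 225 bases before the start in Cd68, 7 in Aif1, 55 in Fcgr1 and 22 in Fcgr4, and the Cd209a window holds none. The longer windows described next held the PU box for 14 markers. Of these, Mgl2, Retnla and the untested Marco had their highest mean in diestrus and all others in estrus. Markers without it included Lyz2, Folr2 and Itgax, highest in estrus, and Cd209a, Flt3, Xcr1 and Zbtb46, highest in diestrus. Chil3 and Timd4, highest in proestrus, also lacked it. Whether the match goes with the stage was not tested. RefSeq windows that also take in the 50 bases after the start were found for 27 of the 38 markers, 30 windows in all. Of these, 16 (53.3%) held GAGGAA on either strand, against 28.3% of 32851 windows of all genes. Its 8-base extension GAGGAAGT, which contains the PU box, was in 4 windows (13.3%), those of Fcgr4, Ly6c2 and Retnla, against 3.20%. The other 6 strings were also searched on both strands. The ETS core GGAAGT, which overlaps that extension, was in 17 windows (56.7% against 23.8%) and the AP-1 site TGAGTCA in 4 (13.3% against 5.20%). The full palindrome of the estrogen response element was in none, against 0.07%. TTCNNNGAA was in 3 (against 8.30%), CACGTGAC in 2 (6.67% against 2.25%) and TGACGTCA in 1 (3.33% against 1.79%). A match describes the letters of a window and not binding.

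Cd14, Siglec1 and Itgam fell in metestrus against estrus, and all 3 were higher in proestrus than in diestrus. Cd14, the co-receptor for bacterial lipopolysaccharide, had 466 and 239 CPM in proestrus, 774 and 580.3 CPM in estrus, 49.5 and 46.03 CPM in metestrus and 33.1 and 76.6 CPM in diestrus. Every library of proestrus and estrus lay above every library of metestrus and diestrus. Cd14 fell in metestrus against estrus (-3.83 ± 0.50, adjusted p = 0.00324) under every alternative run, and proestrus stood above diestrus (2.68 ± 0.47, adjusted p = 0.0107), a call that ended without proestrus library 1 (adjusted p = 0.0572) and when the 4 libraries concerned were fitted alone (adjusted p = 0.0657) and whose log2 fold change was 3.42 without diestrus library 2. Per kilobase, Cd14 had 391 CPM in estrus against 43.3 for Csf1r, and 27.6 in metestrus against 13.4. Of 6 epithelial markers, 4 were called lower and none higher in metestrus than in estrus, against 19.5% and 16.7% of all genes tested. Of the 6, 4 were called higher in proestrus than in diestrus, against 12.0%. Their sums were 4608 and 3742 CPM in proestrus, 3364 and 2884 CPM in estrus, 1172 and 1107 CPM in metestrus and 833 and 1229.9 CPM in diestrus, none of them was at 0, and their part in the Cd14 result was not tested.

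Siglec1, the sialic acid receptor CD169, had 49.4 and 22.3 CPM in proestrus, 126 and 69.1 CPM in estrus, 12.3 and 12.1 CPM in metestrus and 7.602 and 9.08 CPM in diestrus. Estrus libraries were the highest and diestrus libraries the lowest of all. It fell in metestrus against estrus (-3.002 ± 0.44, adjusted p = 0.0043) and was higher in estrus than in diestrus (3.55 ± 0.45, adjusted p = 0.00399), both under every alternative run. Siglec1 in proestrus was above diestrus (2.10 ± 0.43, adjusted p = 0.0179), a call that ended without proestrus library 1 or diestrus library 1 (adjusted p from 0.0515 to 0.0773) and when the 4 libraries concerned were fitted alone (adjusted p = 0.0655), with a log2 fold change of 1.42 without proestrus library 1. Itgam (ENSMUSG00000030786, chr7:128062640-128118491, plus strand, GRCm38), the integrin CD11b of monocytes, macrophages and neutrophils, had 44.4 and 19.8 CPM in proestrus, 45.2 and 46.7 CPM in estrus, 5.67 and 6.42 CPM in metestrus and 5.13 and 5.75 CPM in diestrus. All libraries of proestrus and estrus were above all of metestrus and diestrus. It fell in metestrus against estrus (-2.93 ± 0.37, adjusted p = 0.00309) under every alternative run, and its difference between estrus and proestrus was not called (0.52 ± 0.34, adjusted p = 0.328). Itgam in proestrus was above diestrus (2.56 ± 0.37, adjusted p = 0.00554), which ended when the 4 libraries concerned were fitted alone (adjusted p = 0.0513), and the log2 fold change was 1.86 without proestrus library 1. The annotated gene Gm49368 shares 65.2% of the 75-base words of Itgam transcripts and holds 10 counts over all libraries, and how reads matching both genes were counted is unstated. Of 7 neutrophil markers, 1 was called lower and none higher in metestrus than in estrus, against 19.5% and 16.7% of all genes tested. Their sums were 35.4 and 31.2 CPM in proestrus, 118 and 138 CPM in estrus, 21.7 and 33.2 CPM in metestrus and 16.9 and 62.03 CPM in diestrus. None of the 7 was at 0 in all libraries, and their part in the Itgam result was not tested.

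Msr1, the scavenger receptor SR-A, was highest in proestrus. It had 26.9 and 11.2 CPM in proestrus, 12.4 and 5.32 CPM in estrus, 3.48 and 2.35 CPM in metestrus and 3.01 and 2.02 CPM in diestrus, with library 1 of proestrus and of estrus more than 2-fold above library 2. Msr1 was higher in proestrus than in diestrus (2.91 ± 0.59, adjusted p = 0.0171), a call that ended without proestrus library 1 (adjusted p = 0.08804) and when the 4 libraries concerned were fitted alone (adjusted p = 0.0561), with a log2 fold change of 2.15 without that proestrus library. In metestrus it was lower than in proestrus (-2.70 ± 0.58, adjusted p = 0.0261), which ended without proestrus library 1 or either metestrus library (adjusted p from 0.117 to 0.171), with a log2 fold change of -1.94 without proestrus library 1. Ly6c2, a marker of inflammatory monocytes, had 18.5 and 3.62 CPM in proestrus, 30.6 and 10.7 CPM in estrus, 3.17 and 9.24 CPM in metestrus and 2.07 and 3.03 CPM in diestrus. The 2 proestrus libraries lay more than 5-fold apart, and no pair was called (adjusted p = 0.117 across the stages, 0.00881 by DESeq2 and 0.00881 to 0.309 over all alternatives). Ly6c2 shares 9.46% of its 75-base words with Ly6c1, an endothelial gene.

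Of 5 markers of tissue-resident macrophages, Mrc1 and Folr2 fell in metestrus against estrus and Lyve1 fell in estrus against proestrus. Over all genes tested, 19.5% and 6.94% fell at these steps. Mrc1, the mannose receptor CD206, had 69.8 and 43.7 CPM in proestrus, 91.3 and 74.5 CPM in estrus, 46.3 and 44.8 CPM in metestrus and 37.1 and 34.1 CPM in diestrus. Both estrus libraries were the highest and both diestrus libraries the lowest. Mrc1 fell in metestrus against estrus (-0.86 ± 0.22, adjusted p = 0.0249), which ended without either estrus library or either metestrus library (adjusted p from 0.0578 to 0.138), and its estrus to proestrus difference was not called (0.55 ± 0.22, adjusted p = 0.1403). Folr2, a folate receptor of resident macrophages, had 3.897 and 1.54 CPM in proestrus, 7.103 and 7.43 CPM in estrus, 1.96 and 2.05 CPM in metestrus and 1.53 and 1.21 CPM in diestrus and fell in metestrus against estrus (-1.85 ± 0.44, adjusted p = 0.0187), a call that ended without either estrus library or either metestrus library (adjusted p from 0.0742 to 0.104). Cd163, the hemoglobin scavenger receptor, had 2.97 and 2.38 CPM in proestrus, 3.802 and 4.23 CPM in estrus, 1.65 and 2.57 CPM in metestrus and 4.004 and 1.56 CPM in diestrus and Timd4, a phosphatidylserine receptor, had 3.38 and 0.248 CPM in proestrus, 1.65 and 0.361 CPM in estrus, 0.357 and 0.171 CPM in metestrus and 0.405 and 0.101 CPM in diestrus. In these 2 genes diestrus overlapped with every other stage, and neither was called (adjusted p = 0.403 and adjusted p = 0.226 across the stages).

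Lyve1 (ENSMUSG00000030787, chr7:110850607-110863239, minus strand, GRCm38), a hyaluronan receptor of a subset of resident macrophages and of lymphatic endothelium, had 68.1 and 28.04 CPM in proestrus, 15.5 and 15.6 CPM in estrus, 28.2 and 24.8 CPM in metestrus and 45.97 and 36.2 CPM in diestrus. Both estrus libraries were the lowest of all. Lyve1 fell in estrus against proestrus (-1.63 ± 0.39, adjusted p = 0.0371), and was lower in estrus than in diestrus (-1.40 ± 0.38, adjusted p = 0.0411). The first call ended without proestrus library 1, either estrus library or either metestrus library (adjusted p from 0.0678 to 0.172) and by limma-voom or when the 4 libraries concerned were fitted alone (adjusted p from 0.0581 to 0.0672), with a log2 fold change of -0.89 without proestrus library 1, and the second without either estrus library, either metestrus library or diestrus library 1 (adjusted p from 0.0722 to 0.168) and by limma-voom (adjusted p = 0.0633). Of 6 lymphatic endothelial markers, 2 were called lower and none higher in estrus than in diestrus, against 9.97% and 13.9% of all genes tested. None of the 6 was called in estrus against proestrus, against 8.12% higher and 6.94% lower. They summed to 193 and 133 CPM in proestrus, 131 and 135 CPM in estrus, 211 and 214 CPM in metestrus and 356 and 206 CPM in diestrus, and none was at 0. Among them Ccl21a, a chemokine of lymphatic vessels, had 119 and 67.7 CPM in proestrus, 44.7 and 49.3 CPM in estrus, 114 and 115 CPM in metestrus and 196 and 98.7 CPM in diestrus, also lowest in estrus, whereas Prox1, the master factor of these vessels, had 5.49 and 5.86 CPM in proestrus, 5.302 and 7.43 CPM in estrus, 7.86 and 7.74 CPM in metestrus and 12.3 and 8.12 CPM in diestrus and was not called (adjusted p = 0.121). The part of lymphatic vessels in the Lyve1 result was not tested.

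Of the 4 genes tied to alternative activation, Mgl2 was called across the stages by edgeR (adjusted p = 0.0402), a call that ended without either proestrus library, either estrus library, either metestrus library or diestrus library 1 (adjusted p from 0.0598 to 0.147) and with the replicate block (adjusted p = 0.0501). Mgl2, a galactose-type lectin also called CD301b, had 4.61 and 5.86 CPM in proestrus, 9.004 and 8.105 CPM in estrus, 10.8 and 7.83 CPM in metestrus and 14.5 and 10.7 CPM in diestrus. Both proestrus libraries were the lowest. It was lower in proestrus than in diestrus (-1.27 ± 0.26, adjusted p = 0.0189), a call that ended without either proestrus library (adjusted p from 0.0507 to 0.122) and when the 4 libraries concerned were fitted alone (adjusted p = 0.0739). Its neighbour and paralog Clec10a, CD301a, had 8.61 and 8.54 CPM in proestrus, 23.5 and 56.1 CPM in estrus, 7.95 and 22.4 CPM in metestrus and 13.9 and 8.83 CPM in diestrus. Both estrus libraries were the highest, though more than 2-fold apart from each other, and no pair was called (adjusted p = 0.0543 across the stages, 0.000624 by DESeq2 and 0.000624 to 0.291 over all alternatives). The genes share 6.56% of the 75-base words of Mgl2, so a small part of the reads could fit both. Retnla, the secreted protein RELM-alpha of macrophages and eosinophils, had 1.28 and 3.47 CPM in proestrus, 4.502 and 17.7 CPM in estrus, 2.05 and 7.74 CPM in metestrus and 19.3 and 16.8 CPM in diestrus. Its diestrus libraries were high, its estrus libraries lay almost 4-fold apart, and it was not called (adjusted p = 0.0963, 0.00547 by DESeq2 and 0.00547 to 0.2302 over all alternatives, with 0.0228 without the filter on low counts and 0.0281 with the replicate block). Chil3, the chitinase-like protein Ym1, had 2.102 and 0.546 CPM in proestrus, 1.45 and 0.619 CPM in estrus, 0.179 and 0.0856 CPM in metestrus and 0 and 0.151 CPM in diestrus. Proestrus stood above diestrus (adjusted p = 0.0483), and the 2 diestrus libraries held 0 and 3 counts, so no fold is given. Across the stages Chil3 was not called (adjusted p = 0.0504, 0.0121 to 0.141 over all alternatives), except by DESeq2 (0.0135), with no filter on low counts (0.0121) and without diestrus library 2 (0.0290). The call against diestrus ended without either proestrus library, either estrus library, either metestrus library or diestrus library 1 (adjusted p from 0.0502 to 0.242) and by limma-voom, with the replicate block or when the 4 libraries concerned were fitted alone (adjusted p from 0.0576 to 0.125), and 13.0% of the words of Chil3 also occur in its copies.

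Of the 9 dendritic and GM-CSF receptor genes, 6 changed across the stages, against 39.1% of all genes tested. Of these, Itgax, Batf3 and Csf2ra had their highest mean in estrus and Flt3, Zbtb46 and Cd209a in diestrus. Both proestrus libraries lay below all others for 6 of the 9, against 11.8% of all genes tested. In proestrus, 6 were called lower than in diestrus, against 10.4%, and most of these calls ended under some alternative. Itgax (ENSMUSG00000030789, chr7:128129547-128150657, plus strand, GRCm38), the integrin CD11c of dendritic cells and some macrophages, had 4.82 and 3.37 CPM in proestrus, 15.8 and 15.1 CPM in estrus, 7.098 and 9.07 CPM in metestrus and 10.7 and 12.5 CPM in diestrus. Estrus libraries were the highest and proestrus libraries the lowest. It rose in estrus against proestrus (1.92 ± 0.25, adjusted p = 0.00748) under every alternative run. It fell in metestrus against estrus (-0.94 ± 0.24, adjusted p = 0.0237), which ended without either estrus library or either metestrus library (adjusted p from 0.0755 to 0.148). In proestrus it was lower than in diestrus (-1.50 ± 0.24, adjusted p = 0.00849), which ended when the 4 libraries concerned were fitted alone (adjusted p = 0.0598).

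Flt3, the growth factor receptor of dendritic cell precursors, had 1.64 and 1.54 CPM in proestrus, 3.602 and 4.13 CPM in estrus, 3.39 and 4.15 CPM in metestrus and 5.35 and 3.78 CPM in diestrus. The proestrus libraries were the lowest of all, and the 3 other stages overlapped. Flt3 rose in estrus against proestrus (1.28 ± 0.29, adjusted p = 0.0326) and its difference between metestrus and estrus was not called (-0.04 ± 0.28, adjusted p = 0.931). In proestrus it was lower than in diestrus (-1.52 ± 0.29, adjusted p = 0.0141). That rise ended without either proestrus library, either estrus library or either metestrus library (adjusted p from 0.0659 to 0.153), and the proestrus to diestrus call without either proestrus library (adjusted p from 0.0671 to 0.0816) and when the 4 libraries concerned were fitted alone (adjusted p = 0.0711). Zbtb46 (ENSMUSG00000027583, chr2:181387762-181459426, minus strand, GRCm38), a transcription factor of conventional dendritic cells that endothelium also expresses, had 7.79 and 9.33 CPM in proestrus, 9.204 and 10.02 CPM in estrus, 16.4 and 17.7 CPM in metestrus and 22.4 and 20.6 CPM in diestrus. Proestrus and estrus libraries overlapped, metestrus lay above both and diestrus above metestrus. Zbtb46 was not called in estrus against proestrus (0.17 ± 0.16, adjusted p = 0.516) and rose in metestrus against estrus (0.83 ± 0.16, adjusted p = 0.0107), the only marker called higher at that step. That rise ended without estrus library 1 or metestrus library 2 (adjusted p from 0.0656 to 0.0661). It was lower in proestrus than in diestrus (-1.33 ± 0.16, adjusted p = 0.00377) and lower in estrus than in diestrus (-1.16 ± 0.16, adjusted p = 0.005495), both under every alternative run. Of 6 markers of blood endothelium, 1 was called higher in metestrus than in estrus and 2 lower in estrus than in diestrus. The shares over all genes tested were 16.7% and 9.97%. Of the 6, 2 were lower in proestrus than in diestrus and 2 higher in metestrus than in proestrus, against 10.4% and 6.68%. They summed to 414 and 486 CPM in proestrus, 430.1 and 467 CPM in estrus, 487 and 498 CPM in metestrus and 757 and 575 CPM in diestrus, none was at 0, and their part in the Zbtb46 result was not tested.

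Markers of the 2 conventional dendritic cell subsets stood at a few CPM each. Of the subset that cross-presents antigen, Xcr1, a chemokine receptor, had 2.46 and 1.24 CPM in proestrus, 3.602 and 4.08 CPM in estrus, 3.75 and 4.75 CPM in metestrus and 4.05 and 5.09 CPM in diestrus. Clec9a, a receptor for dead cells, had 2.41 and 1.94 CPM in proestrus, 3.65 and 5.94 CPM in estrus, 3.17 and 2.61 CPM in metestrus and 4.45 and 4.19 CPM in diestrus. Both genes were lowest in proestrus, and neither was called across the stages (adjusted p = 0.0884 and adjusted p = 0.0711). The other stages of Xcr1 overlapped, whereas both metestrus libraries of Clec9a lay below those of estrus and diestrus. In proestrus Xcr1 was lower than in diestrus (-1.30 ± 0.37, adjusted p = 0.0489), a call that ended without proestrus library 2, either estrus library, either metestrus library or either diestrus library (adjusted p from 0.0522 to 0.164) and with the replicate block or when the 4 libraries concerned were fitted alone (adjusted p from 0.07096 to 0.144). Batf3, the factor that this subset requires, had 1.03 and 0.844 CPM in proestrus, 4.85 and 6.04 CPM in estrus, 3.48 and 2.78 CPM in metestrus and 1.89 and 3.48 CPM in diestrus. Its estrus libraries were the highest and its proestrus libraries the lowest. In proestrus it was lower than in diestrus (-1.51, adjusted p = 0.0340), with a log2 fold change of -1.01 without diestrus library 2. That call ended by limma-voom, with the replicate block and when the 4 libraries concerned were fitted alone (adjusted p from 0.0502 to 0.115). It also ended without any library but diestrus library 1. Batf3 rose in estrus against proestrus (2.54 ± 0.39, adjusted p = 0.0115), which ended without either proestrus library or either estrus library (adjusted p from 0.0548 to 0.08601). Cd209a, a lectin of the other subset and of monocyte-derived dendritic cells, had 3.23 and 2.78 CPM in proestrus, 5.503 and 7.28 CPM in estrus, 6.74 and 4.92 CPM in metestrus and 10.12 and 8.88 CPM in diestrus. Diestrus libraries were the highest and proestrus libraries the lowest. It rose in estrus against proestrus (1.09 ± 0.27, adjusted p = 0.0409), which ended without either proestrus library, either estrus library or either metestrus library (adjusted p from 0.0665 to 0.195) and when the 4 libraries concerned were fitted alone (adjusted p = 0.05199). Cd209a was lower in proestrus than in diestrus (-1.66 ± 0.27, adjusted p = 0.00832), which ended without proestrus library 1 (adjusted p = 0.0512).

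Both receptor chains for GM-CSF were called at 1 step. Csf2ra, the ligand-binding chain, had 23.2 and 19.3 CPM in proestrus, 36.3 and 29.6 CPM in estrus, 18.7 and 20.4 CPM in metestrus and 24.2 and 28.4 CPM in diestrus. Csf2rb, the shared signalling chain, had 21.8 and 21.7 CPM in proestrus, 38.3 and 30.6 CPM in estrus, 16.3 and 23.7 CPM in metestrus and 30.8 and 24.5 CPM in diestrus. Estrus libraries of Csf2ra were the highest of all, and those of Csf2rb overlapped with diestrus. Across the stages, edgeR called Csf2ra (adjusted p = 0.0370) but not Csf2rb (adjusted p = 0.0752, 0.034 by DESeq2). Csf2rb was called without diestrus library 2. The stage call of Csf2ra ended with the replicate block (adjusted p = 0.0519). It also ended when either library of proestrus, estrus or metestrus was left out. Both chains fell in metestrus against estrus (-0.75 ± 0.17, adjusted p = 0.0163 for Csf2ra, and -0.78 ± 0.22, adjusted p = 0.03396 for Csf2rb). The call of Csf2ra ended without estrus library 1 or either metestrus library (adjusted p from 0.0828 to 0.111). That of Csf2rb ended without either proestrus library, either estrus library or metestrus library 1 (adjusted p from 0.06298 to 0.182) and with library totals alone or with the replicate block (adjusted p from 0.0505 to 0.0655).

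Between successive stages, markers were called at every step except diestrus against metestrus. In estrus against proestrus, 12 markers rose, against 8.12% of all genes tested, and Lyve1 alone fell, against 6.94%. Their median log2 fold change was 1.09, against 0.01 over all genes tested. The 12 were 6 of the 9 core genes, Fcgr3 and Tyrobp of the 5 receptor and adaptor genes, and 4 of the 9 dendritic and GM-CSF receptor genes. The rising markers numbered 3 without proestrus library 2, 6 without estrus library 1 and 3 without estrus library 2, and DESeq2 called 21. The fall of Lyve1 was not called by edgeR without proestrus library 1, estrus library 1 or 2 or metestrus library 1 or 2. In metestrus against estrus, 18 markers fell, against 19.5% of all genes, and Zbtb46 rose, against 16.7%. The median was -1.36, against -0.05 over all genes. The falling markers numbered 10 without either metestrus library. The rise of Zbtb46 was not called without estrus library 1 or metestrus library 2. Leaving out proestrus library 1 or 2 gave 2 rising markers.

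In diestrus against metestrus no marker was called by edgeR, against 0.282% of all genes higher and 0.226% lower. DESeq2 and limma-voom also called 0. At an unadjusted p under 0.05, 3 of the 37 differed, all higher in diestrus. The share of all genes at that unadjusted threshold was not taken, here or for other lists, so such counts have no reference. Without diestrus library 2, 1 was called higher. The median was 0.21. In proestrus against diestrus, 7 markers were higher (12.0% of all genes) and 9 lower (10.4%). The 7 were Cd68, Fcgr1, Cd14, Msr1, Siglec1, Itgam and Chil3. Of the 9 lower ones, 6 were dendritic cell genes, namely Itgax, Flt3, Zbtb46, Xcr1, Batf3 and Cd209a, and the others were Mertk, Lyz2 and Mgl2. Without proestrus library 1 the higher markers numbered 1 and the lower ones 4, without proestrus library 2 the lower ones 3, and without diestrus library 1 the higher ones 4. Fitted on these 4 libraries alone, 0 were higher and 2 lower. In the fit of all 8, an unadjusted p under 0.05 was reached by 8 markers that were higher and 13 that were lower in proestrus, again without a share of all genes.

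In estrus against diestrus, 15 markers were higher, against 13.9% of all genes, and Lyve1 and Zbtb46 lower, against 9.97%. Without either estrus library 10 were higher, and without estrus library 1 or 2, metestrus library 1 or 2 or diestrus library 1 only 1 was lower. In metestrus against proestrus, 5 markers were higher (6.68% of all genes), namely Lyz2 and the dendritic cell genes Itgax, Flt3, Zbtb46 and Batf3. The 5 lower ones (10.3%) were Cd68, Cd14, Msr1, Siglec1 and Itgam. Without proestrus library 1 or either metestrus library none of the higher calls was made, and there was 1 without proestrus library 2 and 2 without either estrus library. The lower calls numbered 1 without proestrus library 1, 0 without either metestrus library, 3 without either estrus library and 8 without either diestrus library. These pairs share libraries with each other and are not independent. With library totals alone as the scaling, the median over all genes shifted by up to 0.20 on the log2 scale in a pair, and no call of a marker turned round.

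**Figure D3:**
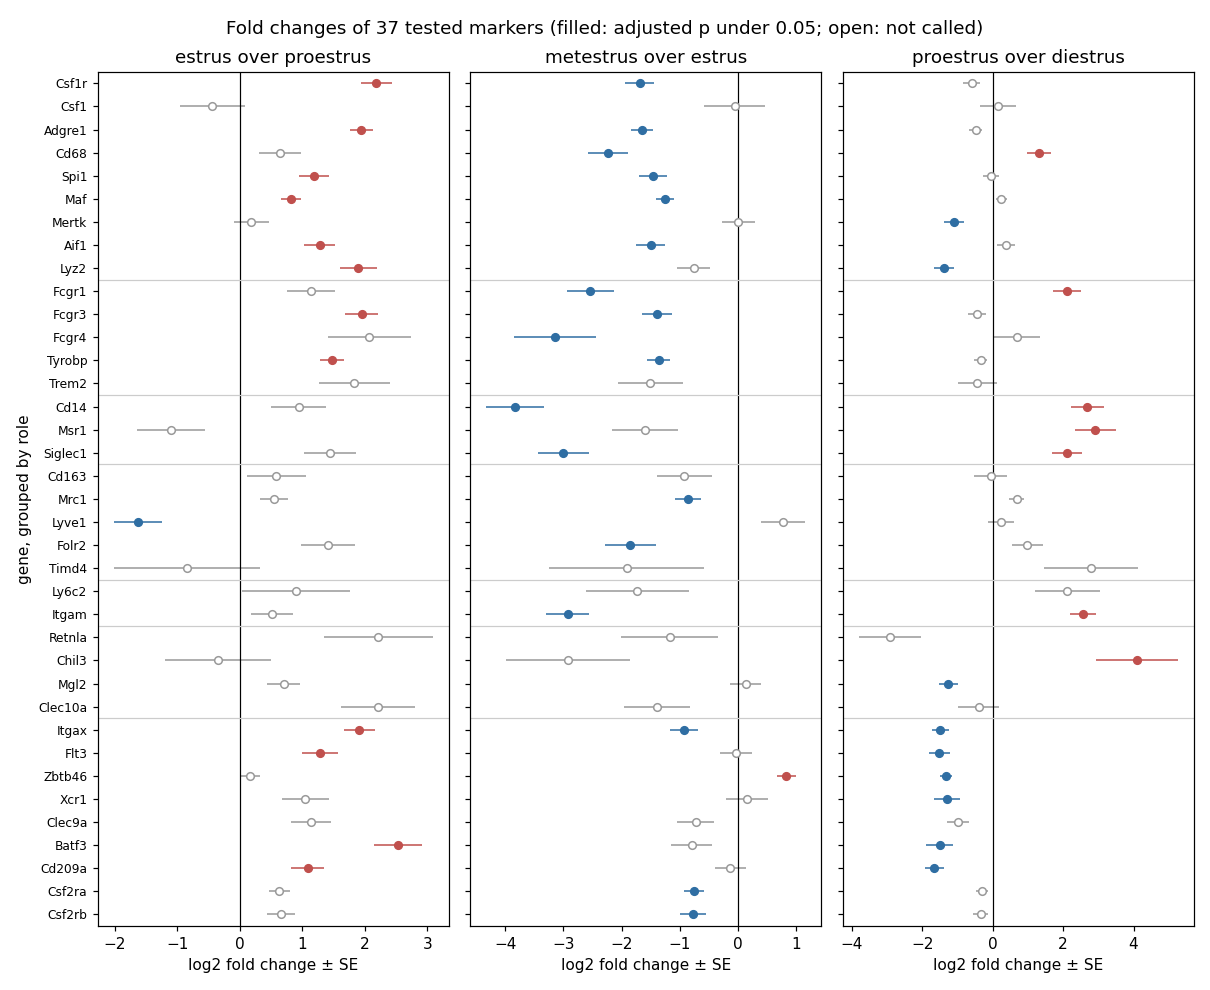
Log2 fold changes with SE of the 37 tested markers, by role, in estrus over proestrus, metestrus over estrus and proestrus over diestrus. Filled points passed the test. Most core macrophage genes lie to the right in the first panel and to the left in the second, and most dendritic cell genes lie to the left in the third.

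Proportions among the markers were compared with 6 ratios of 2 genes inside each library, which need no scaling between libraries. Each is the log2 ratio of counts with 2 added to both, tested by an exact permutation test over the libraries, on the sum of squares between stages, two-sided, for which the smallest possible p is 0.00952. Of the 6, 5 share Csf1r as the denominator. The ratio of Mrc1 to Csf1r was 0.03 and 0.09 for proestrus, -1.27 and -1.91 for estrus, -0.79 and -0.74 for metestrus and -1.08 and -1.36 for diestrus (exact permutation p = 0.0191, adjusted p = 0.0381 over the 6 ratios). Both proestrus libraries were the highest. The ratio of Lyve1 to Csf1r was -0.01 and -0.55 for proestrus, -3.83 and -4.15 for estrus, -1.50 and -1.59 for metestrus and -0.77 and -1.27 for diestrus (exact permutation p = 0.00952, adjusted p = 0.0381), with both estrus libraries far below the rest. The ratio of Itgax to Csf1r was -3.80 and -3.57 for proestrus, -3.79 and -4.20 for estrus, -3.48 and -3.03 for metestrus and -2.87 and -2.80 for diestrus (exact permutation p = 0.0191, adjusted p = 0.0381), highest in diestrus.

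The ratio of Flt3 to Csf1r had the lowest values in estrus and did not pass after adjustment. It was -5.30 and -4.66 for proestrus, -5.90 and -6.05 for estrus, -4.52 and -4.14 for metestrus and -3.86 and -4.50 for diestrus (exact permutation p = 0.0381, adjusted p = 0.0571). The ratio of Trem2 to Csf1r was -2.80 and -2.92 for proestrus, -3.55 and -2.99 for estrus, -2.80 and -3.30 for metestrus and -3.81 and -2.54 for diestrus (exact permutation p = 0.886, adjusted p = 0.886), with the diestrus libraries spanning all other values. The ratio of Mgl2 to Clec10a was -0.89 and -0.54 for proestrus, -1.37 and -2.78 for estrus, 0.44 and -1.50 for metestrus and 0.07 and 0.27 for diestrus (exact permutation p = 0.20, adjusted p = 0.24). Of the 3 ratios that passed, those of Mrc1 and Lyve1 did not pass when any library but estrus library 1 was left out (adjusted p from 0.0571 to 0.103), and that of Itgax did not pass without any library (0.0762 to 0.20).

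**Figure D4:**
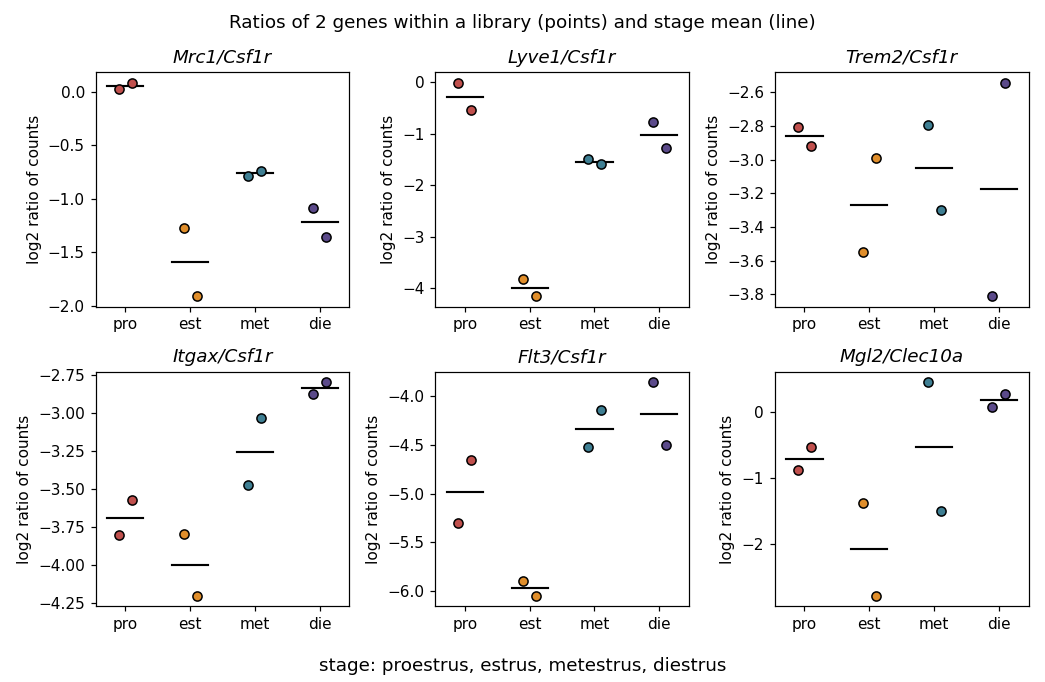
Log2 ratios of the counts of 2 genes in each library (points), with the stage mean (line), for 6 pairs of genes in the order proestrus, estrus, metestrus and diestrus. The ratio of Lyve1 to Csf1r lies between -4.15 and -3.83 in estrus and between -1.59 and -0.01 in the other stages.

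Of 30 further macrophage genes, 28 were tested and 22 changed across the stages, against 39.1% of all genes tested. Of the 28, 21 were called with their highest mean in estrus, against 14.1% of all genes tested. In estrus against proestrus 18 rose and none fell, against 8.12% and 6.94% of all genes, and in metestrus against estrus 21 fell and none rose, against 19.5% and 16.7%. Gpnmb, a lysosomal glycoprotein, had 1.44 and 2.03 CPM in proestrus, 111 and 157 CPM in estrus, 9.02 and 10.6 CPM in metestrus and 14.4 and 27.7 CPM in diestrus. Lgals3, a galectin, had 133 and 86.2 CPM in proestrus, 139 and 162 CPM in estrus, 28.2 and 24.5 CPM in metestrus and 30.7 and 29.5 CPM in diestrus. Arg1, arginase, which other cells also express, had its highest mean in proestrus, with 1087 and 273 CPM in proestrus, 688 and 399 CPM in estrus, 5.22 and 3.85 CPM in metestrus and 1.03 and 1.97 CPM in diestrus. Of 19 further dendritic cell and antigen presentation genes, 11 rose and 1 fell in estrus against proestrus, against 8.12% and 6.94% of all genes, and 4 fell in metestrus against estrus, against 19.5%. Cadm1, an adhesion molecule of cross-presenting dendritic cells and of epithelium, had 35.5 and 41.8 CPM in proestrus, 79.04 and 80.02 CPM in estrus, 43.6 and 49.9 CPM in metestrus and 48.4 and 45.3 CPM in diestrus. Ccr7, the receptor that guides migrating dendritic cells to lymph nodes, had 0.256 and 0.347 CPM in proestrus, 3.15 and 2.17 CPM in estrus, 0.804 and 0.471 CPM in metestrus and 0.405 and 0.706 CPM in diestrus, highest in estrus.

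All 6 pan-leukocyte markers rose in estrus against proestrus and fell in metestrus against estrus, against 8.12% and 19.5% of all genes tested. They summed to 281 and 219 CPM in proestrus, 531 and 480.2 CPM in estrus, 192 and 219 CPM in metestrus and 229 and 249.9 CPM in diestrus. Laptm5, a lysosomal membrane protein of blood cells, had 132 and 104 CPM in proestrus, 212 and 214 CPM in estrus, 76.2 and 76.8 CPM in metestrus and 81.96 and 95.2 CPM in diestrus. Of 8 T and NK cell markers, 7 were tested. None was called in estrus against proestrus by edgeR (2 at an unadjusted p under 0.05), against 8.12% higher and 6.94% lower of all genes. Their median log2 fold change there was 0.57, against 0.01 over all genes. In metestrus against estrus 1 was lower, against 19.5%, and in estrus against diestrus 1 was higher, against 13.9%. Among 5 mast cell markers, 4 were tested and all 4 were lower in proestrus than in diestrus, against 10.4% of all genes tested. Of these 4, 1 changed across the stages, against 39.1%. The 5 mast cell markers summed to 3.33 and 4.52 CPM in proestrus and 44.6 and 12.4 CPM in diestrus, so the diestrus libraries lay far apart. Diestrus library 2 was below metestrus library 1 (16.3 CPM) and estrus library 2 (14.5 CPM). Of 5 eosinophil markers, 3 were tested and none was called in any pair. In estrus against proestrus, 2 were higher at an unadjusted p under 0.05. The 5 summed to 4.26 and 4.91 CPM in proestrus and 14.0 and 18.2 CPM in estrus. In metestrus they summed to 2.68 and 7.70 CPM, and in diestrus to 8.46 and 11.8 CPM. Among them Epx, with at most 0.103 CPM, and Prg2, with at most 0.171 CPM, stood at or near 0. Stromal markers summed to 14999.9 and 17546 CPM in proestrus, 10254 and 6616 CPM in estrus, 16052 and 11199 CPM in metestrus and 13162 and 12814 CPM in diestrus. Of the 6 genes, Lum and Col1a1 fell in estrus against proestrus, against 6.94% of all genes tested. In metestrus against estrus, 4 of the 6 were called higher and 1 lower, against 16.7% and 19.5%. What part a changing share of other cells had in the CPM of the markers was not tested.

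**Figure D5:**
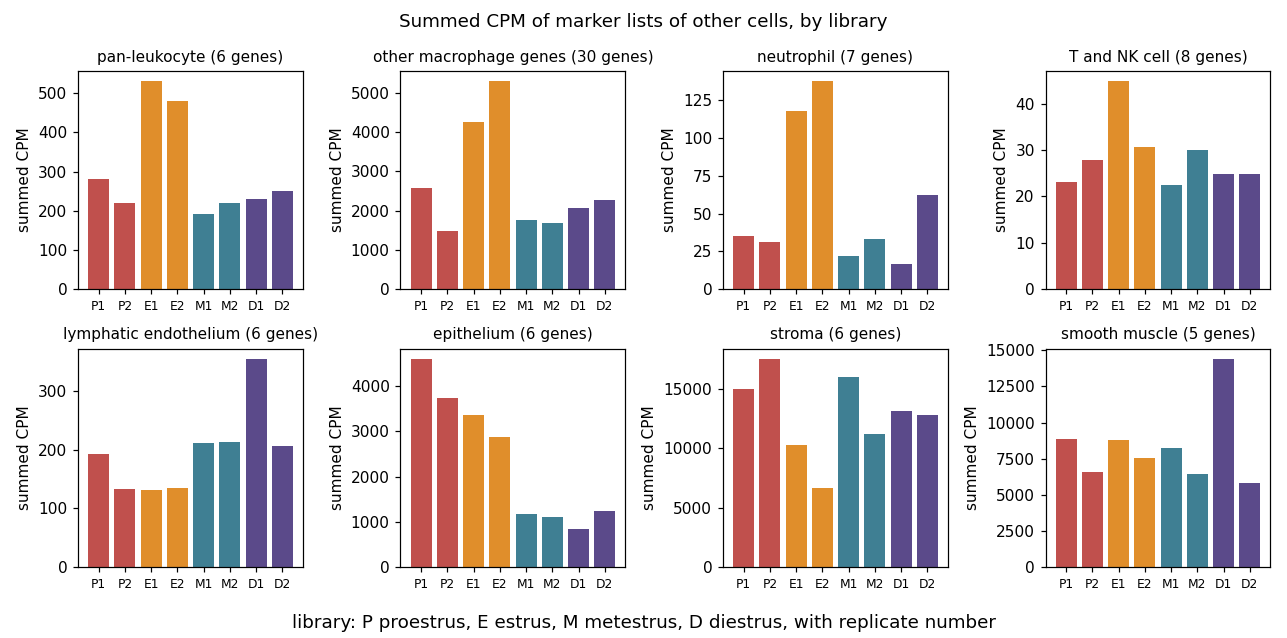
Summed CPM of 8 marker lists of other cells in each library (bars from 0), in the order proestrus, estrus, metestrus and diestrus. The pan-leukocyte and further macrophage genes peak in estrus like the core markers, epithelial genes are high in proestrus and estrus, and smooth muscle genes are highest in diestrus library 1.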

How the data were processed

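RNA of whole uteri was sequenced from a stranded mRNA kit, per the labels' protocols. The deposited values are raw counts of reads per gene. STAR, featureCounts and Subread, with GRCm38 (mm10), are named in the submitters' processing notes. Their versions, the annotation release and the handling of strand are unstated. Of 52308 identifiers, 52058 were named through GENCODE M21. The other 250 stayed unnamed.

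Counts were filtered with filterByExpr by stage, leaving 18114 genes, and scaled by TMM (factors 0.8975 to 1.111). edgeR 4.0.16 in R 4.3.3 fitted stage to all 8 libraries with its quasi-likelihood test, and p-values were Benjamini-Hochberg adjusted over all genes tested, with a threshold of 0.05. DESeq2 1.42.0 and limma 3.58.1 (voom), other scalings and filters, a replicate block, pair-only fits and leaving out each library were alternatives.

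The markers and gene lists were chosen with earlier results of these data known. All 38 markers are named, and of other lists up to 4 genes with the smallest p across stages. Flt3l, Csf2, Prox1, Epx and Prg2 were singled out after their values were seen, as were the strings searched in promoters. Promoter sequences are RefSeq's (GRCm38.p6).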

Additional observations from a re-analysis of the deposited data

How the results depend on the processing

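No call of a marker turned round under any alternative run. Of 75 calls between pairs of stages, 21 held under every alternative, and 54 held under every alternative other than leaving out a library. DESeq2 called 21 markers higher in estrus than in proestrus and 8 higher in metestrus than in proestrus, as did library totals alone (8) for the second pair. Limma-voom called 0 lower in estrus than in proestrus and 1 lower in estrus than in diestrus. With only the 4 libraries of a pair, 0 were lower in estrus than in proestrus, 2 higher in metestrus than in estrus, 0 higher and 2 lower in proestrus than in diestrus, and 8 lower in metestrus than in proestrus. Libraries with the same replicate number did not deviate together throughout (correlations -0.0926 to 0.145), so the numbers were not taken as pairs. The replicate block gave 2 lower in estrus than in proestrus and moved no other count by over 1.5 times. The cause of these shifts was not tested.

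Leaving out 1 library at a time gave 15 to 29 markers called across the stages. In estrus over proestrus it gave 3 to 17 higher and 0 to 1 lower, and in metestrus over estrus 0 to 2 higher and 10 to 21 lower. In diestrus over metestrus it gave 0 to 1 higher, and in proestrus over diestrus 1 to 8 higher and 3 to 8 lower. In estrus over diestrus it gave 10 to 18 higher and 1 to 3 lower, and in metestrus over proestrus 0 to 7 higher and 0 to 8 lower. A stage left with 1 library is then assumed to vary like the others. The number called across the stages over all genes tested moved in these runs too. The adjusted p of the ratios, by exact permutation, lay between 0.0286 and 0.103 for Mrc1 to Csf1r, 0.0286 and 0.10 for Lyve1 to Csf1r, 0.0762 and 0.20 for Itgax to Csf1r, 0.0571 and 0.20 for Flt3 to Csf1r, 0.297 and 0.981 for Trem2 to Csf1r, and 0.10 and 0.606 for Mgl2 to Clec10a. With 2 libraries a stage, markers at a few CPM, such as Timd4 and Chil3, rest on few counts.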
